A study of Homo sapiens with 5 samples.

Results

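The CHD genes encode ATP-dependent chromatin remodellers, and 9 of them were among the 10626 genes of the table: CHD1, CHD2, CHD3, CHD4, CHD6, CHD7, CHD8, CHD9 and CHD1L. They were found by gene name, and all 9 passed the filter on low counts. The family was chosen from measured values of this same contrast, in which CHD2 was among the genes furthest below wild type in the METAP1 knockout. The members' differences between the groups are therefore given as a description, and nothing is supported with them. CHD5 was not analysed here.

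CHD proteins use ATP to slide, evict or space nucleosomes, and most carry paired chromodomains in front of a helicase-like motor. CHD1 and CHD2 bind H3K4-methylated histone H3 and act at transcribed genes. CHD3 and CHD4 are the motor subunits of the NuRD complex, which joins remodelling to histone deacetylation, while CHD6, CHD7, CHD8 and CHD9 form a further branch that acts at enhancers and promoters. CHD1L, also called ALC1, has a related motor without chromodomains and is activated by poly(ADP-ribose) at DNA damage.

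RNA of HAP1 cells, a near-haploid human line derived from a chronic myeloid leukaemia line, was sequenced from 2 METAP1 knockout and 3 wild type (parental) libraries. The knockout is described as 1 CRISPR/Cas9 edited line with a 179 bp insertion in exon 4 of METAP1, which encodes methionine aminopeptidase 1. No treatment is named for either group, and both were grown in the same medium. The growth protocol names METAP1D once, but the transcript and chromosome it gives are those of METAP1. Genotype and clone cannot be told apart. Replicates are labelled biological, but nothing says that they were separate cultures, so any test measures the spread between these libraries, which may be technical. In bulk RNA, fewer cells with a transcript and less of it per cell cannot be told apart. The table held 12570051 to 16519292 reads per library. METAP1 RNA stood at 611 and 748 normalized counts in knockout libraries 2 and 3 (the numbers of their columns), against 1868, 1932 and 1944 in wild type replicates 1, 2 and 3. Both partners of the leukaemia fusion, BCR and ABL1, were measured. Of markers of other cell types, 2 of 12 haematopoietic, 7 of 9 mesenchymal, 4 of 7 epithelial and 3 of 6 neural genes were in the table. Called higher were 1 haematopoietic, 3 mesenchymal, 2 epithelial and all 3 measured neural markers (SOX2, NES and MAP2), beside 14.9% of all tested genes. None was called lower. The lowest log2 fold changes, knockout over wild type, were -0.34 among haematopoietic, -0.16 among mesenchymal and -0.52 among epithelial markers. Summed neural marker counts after normalization were 23855 and 20074 in the knockout libraries, against 9743 to 13285 in wild type, and epithelial sums were 1784 and 1973, against 846 to 955. Mesenchymal sums were 13097 and 13277 in the knockout and 10326 to 10880 in wild type, while haematopoietic sums overlapped. Their part in the CHD results was not tested.

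CHD4 had the highest RNA level of the family in both groups, and CHD2 the lowest in the knockout, on the RPKM scale. RPKM values were computed from the counts as reads per kilobase of gene length, scaled to each library's reads in the table. CHD4 stood at 77.8 ± 4.63 RPKM in the knockout (SD, n = 2) and 79.7 ± 3.19 RPKM in wild type (SD, n = 3). In the knockout it was followed by CHD1 at 44.8 ± 1.59, CHD8 at 32.9 ± 0.62, CHD3 at 32.1 ± 2.50, CHD7 at 29.1 ± 1.69, CHD1L at 26.9 ± 1.54, CHD9 at 20.9 ± 1.03, CHD6 at 17.9 ± 0.0037 and CHD2 at 3.54 ± 0.10 RPKM (SD, n = 2). In wild type the order after CHD4 was CHD3 at 41.1 ± 4.47, CHD1 at 34.5 ± 1.00, CHD1L at 30.6 ± 1.15, CHD8 at 28.0 ± 1.68, CHD7 at 25.3 ± 6.54, CHD9 at 19.5 ± 3.17, CHD2 at 16.8 ± 3.85 and CHD6 at 13.5 ± 1.84 RPKM (SD, n = 3). CHD2 thus lay in place 9 in the knockout and in place 8 in wild type. CHD1 lay in place 2 in the knockout and in place 3 in wild type. Of neighbours in the knockout order, CHD8 overlapped CHD3 and CHD7 overlapped CHD1L between their libraries. In wild type, each neighbouring pair from CHD8 through CHD7, CHD9 and CHD2 to CHD6 overlapped. The other neighbouring pairs did not overlap.

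**Figure D1:**
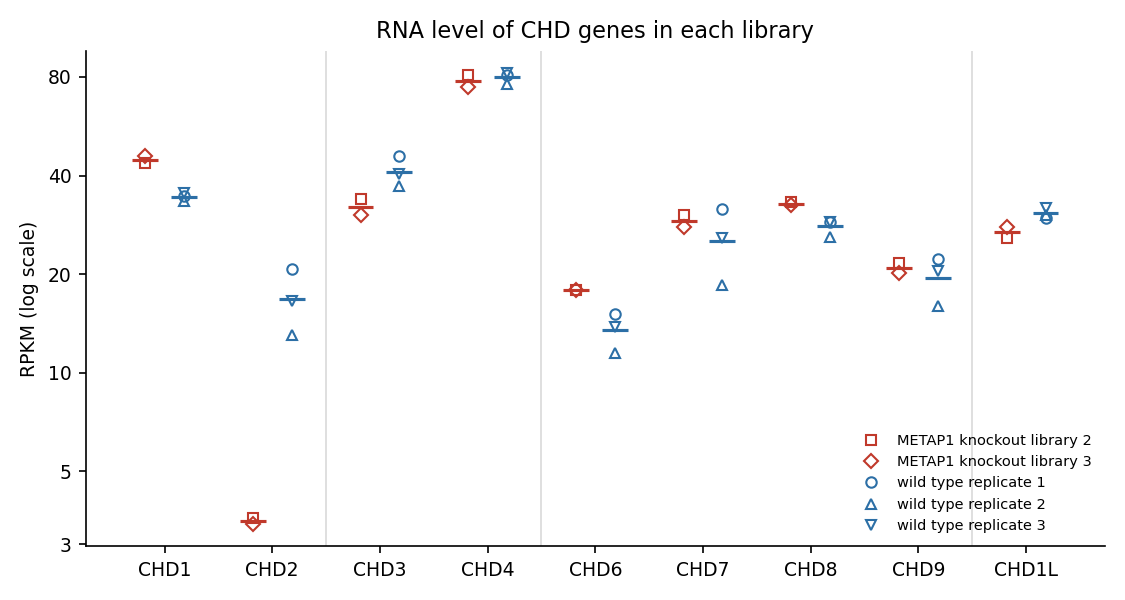
RPKM of each CHD gene (log scale) in each library, with knockout libraries in red left of wild type libraries in blue and a line at each group's mean. CHD2 sits at 3.61 and 3.46 RPKM in the knockout libraries, below its lowest wild type library at 13.0 RPKM, while CHD4 sits between 74.5 and 82.1 RPKM in all 5 libraries.

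The summed RPKM of the 9 genes was 291 and 281 in the knockout libraries and 310, 262 and 295 in the wild type libraries, so the groups overlapped. CHD2 made up 1.24% of this sum in both knockout libraries, against 6.69, 4.98 and 5.61% in wild type replicates 1, 2 and 3. CHD1 made up 14.99 and 16.4% in the knockout, against 11.2, 12.8 and 12.0% in wild type.

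CHD2 was the member with the largest difference. It lies on the forward strand of chromosome 15 (92900189 to 93028005, GRCh38, GENCODE release 29; Ensembl ENSG00000173575). Its raw reads numbered 546 and 545 in the knockout libraries, against 3273, 2595 and 2940 in wild type replicates 1 to 3. After normalization, the counts were 608 and 577 in the knockout, against 3518, 2188 and 2827 in wild type. The knockout libraries lay close together and far below all 3 wild type libraries, which themselves spread widely. The log2 fold change, knockout over wild type, was -2.26 (SE 0.201), which left CHD2 RNA at 0.208 times the wild type level, and it was the change ranked 10 from the lowest among 10620 tested genes. A transcript model that GENCODE release 29 names AC013394.1 overlaps CHD2 on the same strand over 49042 bases, and the sources used here do not say whether the authors' annotation held it, so how shared reads were assigned is uncertain.

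CHD1, the closest relative of CHD2, lies on the reverse strand of chromosome 5 (98853985 to 98928957, GRCh38; ENSG00000153922) and differed the other way. It had 4598 and 4777 normalized counts in the knockout libraries, against 3669, 3507 and 3778 in wild type replicates 1 to 3. Both knockout libraries were above all wild type libraries, with a log2 fold change of 0.36 (SE 0.087), or 1.28-fold. The call at an adjusted p of 0.05 did not hold on leaving out either knockout library (0.39 without library 2, 0.33 without library 3) or wild type replicate 3 (0.39). It also ended with each library's trend with gene length removed, at 0.23.

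The starts of CHD2 and CHD1 are shown because these close relatives differed in opposite directions. Each line gives the 250 bases before the RefSeq start (GRCh38.p14), CHD2 at chr15:92900074-92900323 on the forward strand and CHD1 at chr5:98929008-98929257 on the reverse strand, with matches to the motifs searched in capitals.
CHD2: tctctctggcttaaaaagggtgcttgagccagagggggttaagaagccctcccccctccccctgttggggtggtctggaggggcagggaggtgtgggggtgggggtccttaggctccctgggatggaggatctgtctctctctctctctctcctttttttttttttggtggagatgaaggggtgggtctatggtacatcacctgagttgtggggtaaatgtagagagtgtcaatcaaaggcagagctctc
CHD1: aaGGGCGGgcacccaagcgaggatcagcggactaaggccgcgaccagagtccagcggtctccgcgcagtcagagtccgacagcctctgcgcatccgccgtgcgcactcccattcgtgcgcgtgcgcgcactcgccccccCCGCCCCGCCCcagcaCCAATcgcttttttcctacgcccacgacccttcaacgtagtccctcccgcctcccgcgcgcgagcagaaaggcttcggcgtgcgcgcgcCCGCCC
The motifs, searched on both strands, were the GC box GGGCGG, the CCAAT box CCAAT, the TATA box TATAAA, the ETS motif CCGGAAG, the cyclic AMP response element TGACGTCA and the E-box CACGTG. The CHD1 window held 4 GC boxes, of which the middle pair share a base, and 1 CCAAT box. The CHD2 window held none of these letters. A GC box was present in 42.6% of all 35116 RefSeq windows of this length and a CCAAT box in 32.01%. The other motifs matched 10.7% (TATA), 8.52% (ETS), 1.65% (cyclic AMP response element) and 6.34% (E-box) of windows. The CHD2 window held 0 CpG dinucleotides, as did 6.06% of all windows, while the CHD1 window held 36, more than 95.1% of windows. G and C made up 54.8% of the CHD2 window and 70.8% of the CHD1 window, against a median of 58.0% over all windows. GENCODE places the CHD2 start inside the window shown, so the site in use in these cells is not known from these data. Windows of 7 of the 9 genes were examined, 12 in all. No window of CHD6 or CHD7 was examined, so whether they hold these motifs was not tested. GC boxes were present in at least 1 window of CHD1, CHD1L, CHD4, CHD8 and CHD9, though not in every window of CHD1L and CHD9. They were absent from the windows of CHD2 and CHD3. CHD2 and CHD3 had 1 window each, against 3 for CHD1L and 4 for CHD9, so presence in any window is not an even comparison. A link between these motifs and the RNA levels was not tested.

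Of the NuRD motors, CHD3 was called lower and CHD4 was not called. CHD3 (chromosome 17, ENSG00000170004) had 4488 and 3971 normalized counts in the knockout, against 6127, 4888 and 5415 in wild type replicates 1 to 3. Both knockout libraries were below all wild type libraries. Its log2 fold change was -0.37 (SE 0.118), and it was no longer called on leaving out either knockout library (-0.46 without library 2, -0.29 without library 3) or wild type replicate 3 (-0.38), and at -0.29 with the column numbers as a block. CHD3 overlaps LSMD1, called NAA38 in GENCODE, by 433 bases on the opposite strand, and as no source says whether counting used strand, reads there cannot be assigned with certainty. LSMD1 had a log2 fold change of -0.35 (SE 0.154) and was not called. CHD4 (chromosome 12, ENSG00000111642) had 8052 and 7311 normalized counts in the knockout and 8105, 7527 and 8257 in wild type. Its groups overlapped, with a log2 fold change of -0.05 (SE 0.093) that turned to 0.016 without knockout library 3. The model AC006064.6 overlaps CHD4 on the same strand over 37286 bases, so its reads are uncertain in the same way as those of CHD2.

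Of the branch with CHD6 to CHD9, CHD6 was the called member. CHD6 (chromosome 20, ENSG00000124177) had 3473 and 3430 normalized counts in the knockout, against 2964, 2226 and 2721 in wild type replicates 1 to 3, and the groups did not overlap. The log2 fold change was 0.39 (SE 0.125). It was not called when wild type replicate 2 (0.28) or 3 (0.41) or knockout library 2 (0.38) or 3 (0.40) was left out, and with the length trend removed the value was 0.09. CHD8 (chromosome 14, ENSG00000100888), a regulator whose loss is known from autism, had 4437 and 4267 normalized counts in the knockout and 3883, 3452 and 3904 in wild type, without overlap. Its log2 fold change of 0.22 (SE 0.095) was not called, and it came to 0.02 with the length trend removed. CHD7 (chromosome 8, ENSG00000171316), the gene mutated in CHARGE syndrome, had 4598 and 4183 normalized counts in the knockout and 4830, 2801 and 3965 in wild type. CHD9 (chromosome 16, ENSG00000177200) had 3201 and 2950 in the knockout and 3303, 2358 and 3052 in wild type. Both CHD7 and CHD9 overlapped between groups, with log2 fold changes of 0.18 (SE 0.202) and 0.08 (SE 0.143).

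CHD1L (chromosome 1, ENSG00000131778) had 1211 and 1297 normalized counts in the knockout, against 1405, 1419 and 1518 in wild type replicates 1 to 3. The groups did not overlap, and the log2 fold change of -0.21 (SE 0.095) was not called. PARP1 and PARP2, the enzymes that make the poly(ADP-ribose) CHD1L binds, had log2 fold changes of -0.11 (SE 0.091) and -0.43 (SE 0.123), and PARP2 was called (adjusted p = 0.0311 in edgeR's quasi-likelihood test). PARP2 was not called on leaving out either knockout library (-0.55 without library 2, -0.32 without library 3) or wild type replicate 3 (-0.39).

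In all, 4 of the 9 genes were called at an adjusted p under 0.05 in edgeR's quasi-likelihood test over all genes, beside 29.7% of all tested genes. CHD1 and CHD6 were called higher in the knockout (14.9% of all tested genes were) and CHD2 and CHD3 lower (14.8%). The family's median log2 fold change was 0.08, against 0.01 over all tested genes. The groups did not overlap in 6 of the 9 genes, beside 59.3% of all tested genes. The authors' deposited table put the same 4 genes under an adjusted p of 0.05, beside 31.6% of its genes, with log2 fold changes of -2.09 for CHD2, 0.35 for CHD1, 0.37 for CHD6 and -0.36 for CHD3 in the authors' deposited table.

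**Figure D2:**
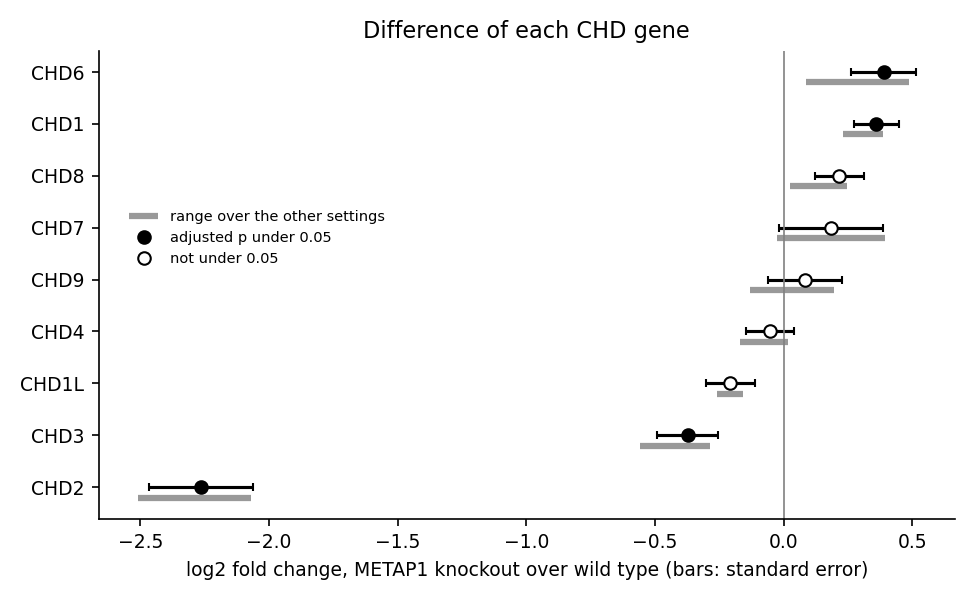
Log2 fold change of each CHD gene, knockout over wild type, with its standard error (filled where the adjusted p is under 0.05) and, in grey, the range over the 13 other settings. CHD2 stays between -2.51 and -2.07, while the ranges of CHD4, CHD7 and CHD9 cross 0.

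All CHD genes but CHD1L are long, up to 13907 bases for CHD6, and values of long genes differed between the wild type libraries. CHD1L has 3358 bases, below the median of 3944 bases over all tested genes. Wild type replicate 2 was the lowest wild type library in 8 of the 9 genes, all but CHD1L, and replicate 1 was the highest in 5. Over all tested genes, replicate 2 was lowest in 37.6% and replicate 1 highest in 40.2%. Among the longest 10% of tested genes (8345 bases or more), replicate 2 was lowest in 77.9% and replicate 1 highest in 73.9%, and the median log2 fold change was 0.21. In the shortest 10%, these shares were 17.6% and 19.1%, with a median of -0.15. With the length trend of each library removed, neither CHD1 nor CHD6 was called, so 0 members were higher, while CHD2 stood at -2.51 and CHD3 at -0.56. Without wild type replicate 2, CHD7 stood at -0.0020 and CHD9 at -0.047.

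Ratios between related members within a library do not depend on how libraries are scaled. The RPKM of CHD2 was 0.0827 and 0.0755 times that of CHD1 in the knockout libraries, against 0.5999, 0.390 and 0.468 times in wild type replicates 1 to 3. The mean log2 ratio was -3.66 ± 0.09 in the knockout (SD, n = 2) and -1.06 ± 0.31 in wild type (SD, n = 3), a difference of -2.60. CHD3 had 0.418 and 0.407 times the RPKM of CHD4 in the knockout, against 0.567, 0.487 and 0.492 times in wild type. CHD6 had 0.824 and 0.883 times the RPKM of CHD9 in the knockout, against 0.682, 0.717 and 0.677 times in wild type. These 3 ratios did not overlap between the groups, beside 59.3% of single tested genes. The share over other pairs of genes was not computed. Genes of a pair differ in length (12044 bases for CHD2, 7534 for CHD1), and the length trend was not removed from these ratios. The ratio of CHD8 to CHD9 overlapped, at 1.54 and 1.60 in the knockout and 1.30, 1.62 and 1.42 in wild type.

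**Figure D3:**
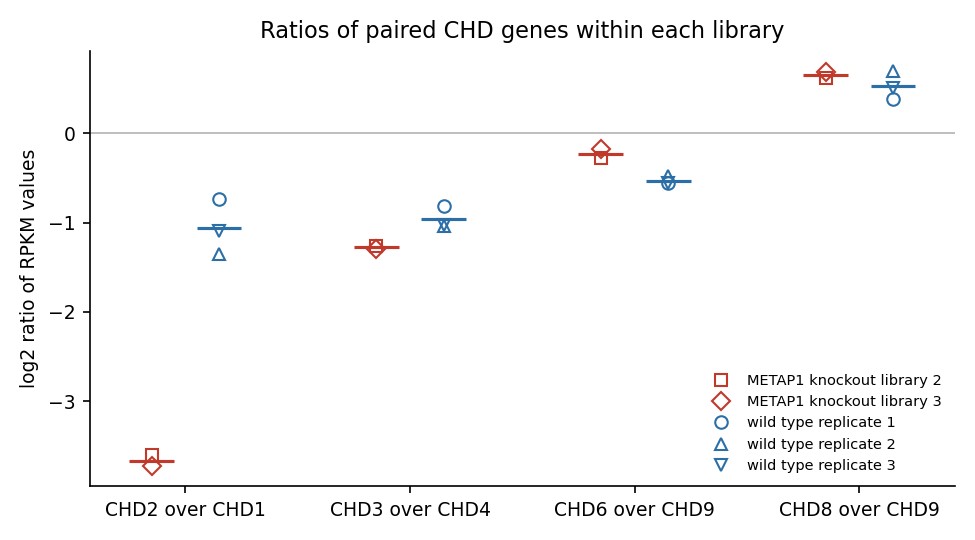
Log2 ratio of RPKM values of 4 pairs of CHD genes within each library, with knockout libraries in red left of wild type libraries in blue and a line at each group's mean. The CHD2 over CHD1 ratio is near -3.66 in the knockout and between -1.36 and -0.74 in wild type, and the other pairs differ by 0.32 or less between the group means.

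Of the 4 measured genes beside CHD2, 3 were called higher, beside 14.9% of all tested genes, and RGMA was not called. FAM174B, the nearest measured gene before CHD2 at a distance of 90.3 kb, had 673 and 763 normalized counts in the knockout, against 134, 74.2 and 102 in wild type replicates 1 to 3. It rose with a log2 fold change of 2.81 (SE 0.214; adjusted p = 0.000121, edgeR quasi-likelihood test). ST8SIA2, which encodes a polysialyltransferase and lies 431 kb before CHD2, had 245 and 347 in the knockout and 106, 73.4 and 86.6 in wild type, a rise of 1.75 on the log2 scale (SE 0.210; adjusted p = 0.000809, edgeR). RGMA, a repulsive guidance molecule gene 7.27 kb after CHD2 on the opposite strand, had 351 and 317 in the knockout and 373, 301 and 264 in wild type. The RGMA groups overlapped, and its log2 fold change of 0.10 (SE 0.165) turned to -0.011 without wild type replicate 3. The next measured gene was NR2F2, 3298 kb after CHD2, which encodes a nuclear receptor and rose by 0.61 (SE 0.169; adjusted p = 0.0281, edgeR), a call lost without knockout library 2 (0.68) or 3 (0.53) or wild type replicate 3 (0.65).

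CHD1 has relatives of these genes beside it. RGMB, 55.3 kb from CHD1, rose by 1.77 (SE 0.157; adjusted p = 0.000188, edgeR quasi-likelihood test), with 1794 ± 185 normalized counts in the knockout (SD, n = 2) and 527 ± 99.6 in wild type (SD, n = 3). FAM174A, 1606 kb away, had a log2 fold change of 0.27 (SE 0.167) and was not called. CHD2 and CHD1 thus differed in opposite directions, while the RGM gene rose beside CHD1 and the FAM174 gene beside CHD2. Over the 36 neighbours of the 9 genes, 2 on each side, 8 were called higher and 2 lower, beside 14.9% higher and 14.8% lower over all tested genes, with a median log2 fold change of 0.20. Of the other called ones, CYB5D1 (-0.91, SE 0.150), 22.5 kb from CHD3, and EMILIN3 (-0.85, SE 0.116), 35.3 kb from CHD6, were lower. CA8 (2.31, SE 0.242), 397 kb from CHD7, and RAB2B (0.73, SE 0.122), 2.89 kb from CHD8, were higher. So were PAM (0.71, SE 0.111), 3825 kb from CHD1, and IFFO1 (0.41, SE 0.128), 14.0 kb from CHD4. Of these, IFFO1 was not called on leaving out either knockout library (0.42 without library 2, 0.40 without library 3) or wild type replicate 1 (0.34) or 3 (0.42), nor at 0.35 with the column numbers as a block.

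**Figure D4:**
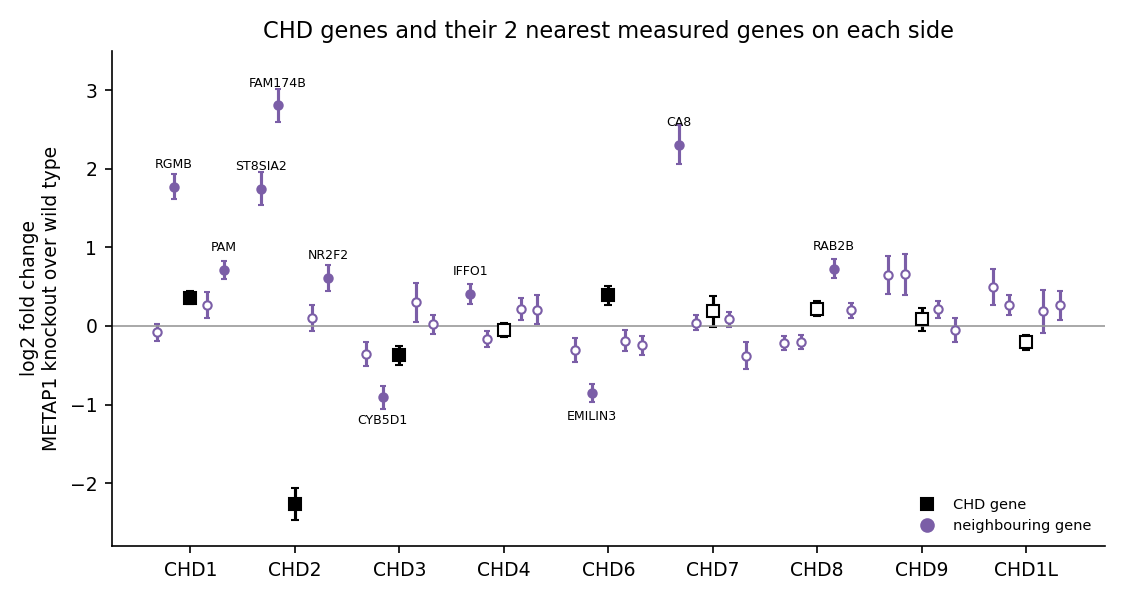
Log2 fold change with its standard error of each CHD gene (black squares) and of the 2 nearest measured genes on each side (circles, in genome order), filled where the adjusted p is under 0.05, with called neighbours named. FAM174B at 2.81 and ST8SIA2 at 1.75 lie above 0 beside CHD2 at -2.26.

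The tested genes with the pattern nearest to that of CHD2 over the 5 libraries, by Euclidean distance between centred log2 normalized counts, were HIST1H3A (0.429), HIST4H4 (0.434), DCLK1 (0.445), HPGD (0.457) and KCNK2 (0.460). DCLK1, a kinase gene, had 642 and 487 normalized counts in the knockout, against 3212, 2721 and 3127 in wild type replicates 1 to 3. HPGD, which encodes a prostaglandin-degrading enzyme, had 308 and 245 in the knockout and 1149, 885 and 1112 in wild type. HIST1H3A and HIST4H4 encode histones and belong to families of similar genes. How reads were split within these families was not tested.

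Genes that work with CHD3 and CHD4 in NuRD and ChAHP complexes had 6 of 15 members lower and 0 higher in edgeR's quasi-likelihood test, beside 14.8% lower and 14.9% higher over all tested genes, with a median log2 fold change of -0.14 against 0.01 over all tested genes. At an unadjusted p under 0.05, 2 were higher, and DESeq2 called 1 higher and limma-voom 0. MBD2, the subunit that binds methylated DNA, had 511 and 488 normalized counts in the knockout, against 763, 749.5 and 784 in wild type replicates 1 to 3 (log2 fold change -0.62, SE 0.106; adjusted p = 0.00392, edgeR). The scaffold gene MTA2 (-0.41, SE 0.092) and CDK2AP1, which encodes a small NuRD subunit (-0.38, SE 0.090), were lower too. The other called members, named after their values were seen, were RBBP7 and the heterochromatin protein genes CBX1 and CBX3, of which RBBP7 (-0.29) and CBX3 (-0.34) were not called without wild type replicate 2. The deacetylase genes HDAC1 and HDAC2 had -0.01 and 0.01. On leaving out either knockout library, or wild type replicate 3, 1 member was called lower.

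Genes of elongation, H3K4 methylation and poly(ADP-ribose) synthesis, processes in which CHD1, CHD2, CHD8 and CHD1L take part, had 5 of 20 members lower and 0 higher by edgeR, with a median of -0.16. That is 25% called in either direction, beside 29.7% of all tested genes. Of all tested genes, 14.8% were called lower and 14.9% higher. No member was higher at an unadjusted p under 0.05 either, and DESeq2 and limma-voom called 0 higher. PAF1, which names an elongation complex, had 687 and 619 normalized counts in the knockout, against 1017, 993 and 1058 in wild type (-0.65, SE 0.107; adjusted p = 0.00326, edgeR). SSRP1, a subunit of the histone chaperone FACT (-0.37, SE 0.086), and WDR5, a core subunit of H3K4 methyltransferases (-0.39, SE 0.095), were also lower. On leaving out either knockout library, or wild type replicate 3, 1 member was called lower.

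In the other remodeller classes, 16.7% of SWI/SNF, 16.7% of ISWI and 10.3% of INO80, SRCAP and EP400 genes were called in either direction. Over all tested genes the share was 29.7%, with 14.9% called higher and 14.8% lower. Of 24 SWI/SNF genes, 3 were lower and 1 higher (median 0.03): SMARCD3 (-0.93, SE 0.125), ACTL6A (-0.58, SE 0.115) and DPF1 (-0.75, SE 0.153) were lower, and ARID1B, named after its value was seen, was higher (0.69, SE 0.198). ARID1B was not called on leaving out either knockout library (0.62 without library 2, 0.76 without library 3) or wild type replicate 3 (0.68). Of 12 ISWI genes, 2 were lower by edgeR (median -0.03): POLE3, a histone-fold subunit shared with a DNA polymerase (-0.91, SE 0.121), and BAZ1A (-0.32, SE 0.103). None of the ISWI genes was called higher by edgeR, against 4 at an unadjusted p under 0.05, 4 by DESeq2 and 1 by limma-voom. Of 29 genes of the INO80, SRCAP and EP400 complexes, 3 were lower by edgeR (median -0.03): YEATS4 (-0.64, SE 0.131), the ATPase gene RUVBL1 (-0.59, SE 0.116) and BRD8 (-0.41, SE 0.101). In that list 0 were higher by edgeR, 4 at an unadjusted p under 0.05, 2 by DESeq2 and 1 by limma-voom.

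Among 14 further SNF2-type ATPases, the motor class to which CHD proteins belong, BTAF1 was higher and ERCC6L lower (median 0.07), which is 14.3% called, beside 29.7% of all tested genes. BTAF1, which removes the TATA-binding protein from DNA, had 5243 and 5369 normalized counts in the knockout, against 2969, 2847 and 3101 in wild type replicates 1 to 3 (0.84, SE 0.087; adjusted p = 0.000405, edgeR). ERCC6L, a helicase of mitotic DNA bridges, had a log2 fold change of -0.83 (SE 0.099; adjusted p = 0.000771, edgeR). Of the 16 list genes named here by the rule, MBD2, PAF1, SMARCD3, POLE3, BTAF1 and ERCC6L were called in all 13 other settings. The other 10 were not called with knockout library 2 or library 3 left out, and of these MTA2, CDK2AP1, BAZ1A, BRD8, SSRP1 and WDR5 also without wild type replicate 3, and BAZ1A without replicate 2.

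**Figure D5:**
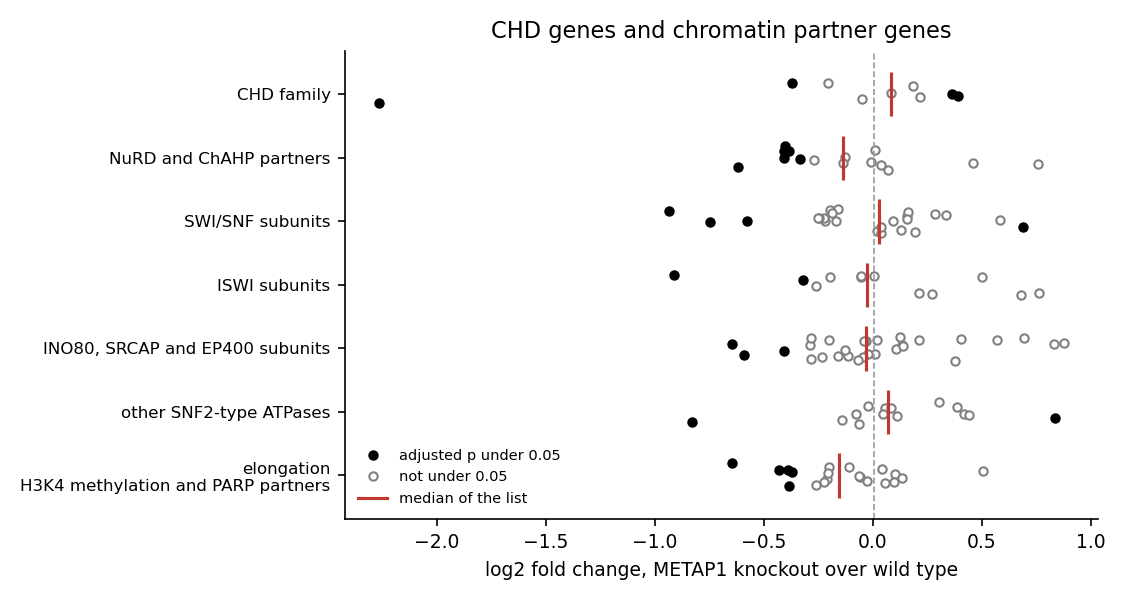
Log2 fold change of every tested gene of the CHD family and of 6 lists of chromatin genes, filled where the adjusted p is under 0.05, with red lines at list medians and a dashed line at the median of all tested genes (0.01). CHD2 at -2.26 lies below all genes of the other lists, of which the lowest is SMARCD3 at -0.93.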

How the data were processed

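Per the file headers, the authors deposited 1 table of 10626 genes that holds raw counts per library, gene lengths, RPKM values, and their own comparison: log2 fold changes, a test score, p-values and adjusted p-values, and a mean signal. Per the submitters' processing notes, the tools were STAR 2.4.0i, HTSeq and DESeq2 and the builds GRCh37 and hg19, with no roles given. No source used here says whether strand entered the counting. The 5 deposited RPKM columns were not used, because knockout columns could be tied to their group for 1 measure only; levels per length were computed from the counts. Libraries were stranded and depleted of ribosomal RNA, per the labels' protocols. Knockout columns, numbered 2 and 3, were not tied to titles.

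Counts were analysed with edgeR 4.0.16 (R 4.3.3): filterByExpr, which removed 6 genes, TMM, and a 2-sided quasi-likelihood F-test over 5 libraries without covariates. Benjamini-Hochberg adjustment ran across all 10620 tested genes, and a gene is called under 0.05. Normalized counts are raw counts rescaled to the mean effective library size. The members and lists were chosen with earlier results of these data known. Named by rule were the 9 members, METAP1, up to 3 called genes per list with the smallest adjusted p, the neighbours of the member that differed most, and the 5 genes nearest in pattern (0.5 added before log2). Positions came from GENCODE release 29 and promoters from RefSeq, never converted between builds. Alternatives were median-of-ratios factors, no TMM, no filter, a mean count of at least 50, DESeq2 1.42.0, limma-voom (limma 3.58.1), removal of the length trend (lowess, span 0.3), a block by column number, and each library left out, which leaves a lone knockout library assumed to vary like wild type. The fit was also run on simulated counts that carried no length trend, and no result given here rests on that run. Libraries of a group differed by more than sampling noise, with chi-square per degree of freedom from 10.1 to 34.9.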

Additional observations from a re-analysis of the deposited data

How the results depend on the processing

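Over the 35 genes named by rule and 13 other settings, 406 gene values kept their direction and side of the threshold. Another 43 lost their call and 6 turned, all 6 in genes not called. These were CHD4 at 0.016 without knockout library 3, and CHD7 at -0.026 and CHD9 at -0.13 with the length trend removed. Also turned were CHD7 at -0.0020 and CHD9 at -0.047 without wild type replicate 2, and RGMA at -0.011 without wild type replicate 3. Genes named otherwise, among them ARID1B, PARP2, RBBP7, CBX1, CBX3 and IFFO1, are not in this tally. With a library left out, CHD4 ranged from -0.12 to 0.016, CHD7 from -0.0020 to 0.36, CHD9 from -0.047 to 0.17 and RGMA from -0.011 to 0.22. CHD2 lay between -2.51 and -2.07 and was called in all 13.

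With the length trend removed, 0 CHD genes were called higher, 6 SWI/SNF and 5 ISWI genes lower, and 1 ISWI and 1 INO80, SRCAP and EP400 gene higher. DESeq2 called 1 NuRD and ChAHP, 4 ISWI and 2 INO80, SRCAP and EP400 genes higher, limma-voom 1 of each of the last 2, library sizes without TMM 1 ISWI gene, and a mean of at least 50 counts 1 INO80, SRCAP and EP400 gene. The cause was not tested. With a replicate block by column number, 1 CHD gene was lower, and 2 NuRD and ChAHP, 4 SWI/SNF, 3 ISWI, 6 INO80, SRCAP and EP400, 5 other SNF2-type and 1 elongation gene were higher. That block rests on numbers alone, and sample titles number the knockouts otherwise. Deviations of same-numbered libraries correlated at 0.032 and -0.002. Deviations of 2 knockout libraries from their mean mirror each other, so these values cannot show whether a pairing exists. No knockout library carries number 1, so in the block wild type replicate 1 stood alone and added nothing to the contrast. Over all genes the block called 4356, against 3150 in the main fit and 4591 in the fit without replicate 1.

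With each library left out, all genes called higher numbered 615 to 2313 and lower 564 to 2278. For CHD genes these were 0 to 2 higher and 1 to 2 lower, for NuRD and ChAHP 0 to 2 and 1 to 6, for SWI/SNF 0 to 4 and 1 to 5, and for ISWI 0 to 4 and 1 to 2. For INO80, SRCAP and EP400 they were 0 to 6 and 0 to 4, for other SNF2-type ATPases 1 to 4 and 1 to 1, and for elongation partners 0 to 1 and 1 to 7. The calls of CHD1, CHD3 and CHD6 were lost without either knockout library or wild type replicate 3. The call of CHD6 was also lost without replicate 2, while without replicate 1 all 3 were called. Over all genes, 1665 were called without replicate 3 and 4591 without replicate 1, against 3150 with all 5 libraries.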
